A study of Mus musculus with 2 samples.

Results

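The G1 regulators examined here were 10 genes: the D cyclins Ccnd1, Ccnd2 and Ccnd3, the E cyclins Ccne1 and Ccne2, the cyclin-dependent kinases Cdk2, Cdk4 and Cdk6, the activating phosphatase Cdc25a and the inhibitor Cdkn1b. They were chosen by name, and every non-control probe whose RefSeq accession resolved to one of these symbols was taken, which gave 14 probes for 10 genes, out of 39429 probes and 20659 named genes on the array. Total RNA labelled with Cy3 was measured on 2 Agilent mouse arrays of 1 colour and came from RAW246.1, a cell line whose tissue the labels give as macrophage. One sample, labelled PBS, was the mock control, and the other, labelled miR-122, had received the synthetic microRNA at a stated 5 μg/mL. Both were grown in DMEM medium, both carry the same treatment text naming the microRNA, and the time of exposure and the number of cultures behind each sample are not given in the sources used here. The title of the miR-122 sample reads as if the microRNA were absent, so every direction below rests on its source name and description. The study asked how liver miR-122 acts on alveolar macrophages, which were not measured in these samples. With 1 array in each group no difference has a test, a p-value or a spread between cultures, and position on the slide and treatment cannot be told apart.

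In G1, D-type cyclins bind CDK4 or CDK6 and start the phosphorylation of the retinoblastoma protein, which releases E2F transcription factors. E2F in turn drives cyclin E, which binds CDK2, and the cell passes into S phase. CDC25A removes inhibitory phosphates from CDK2, and p27, the product of Cdkn1b, binds and restrains cyclin-CDK2 complexes while it also assembles with cyclin D complexes. In macrophages, growth factors acting through the CSF1 receptor induce D cyclins, and inflammatory activation is known to slow the passage from G1 to S.

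The cyclin genes stood on both sides. The D cyclins Ccnd2 and Ccnd1 were 3.03-fold and 2.14-fold higher on the miR-122 array, while the E cyclin Ccne2 was 3.08-fold lower. Cdc25a was 1.61-fold lower, Ccne1 1.49-fold lower and Cdk4 1.43-fold lower. Cdk2, Cdk6, Ccnd3 and Cdkn1b differed by 1.27-fold or less on the scaling used. Thus 2 of the 10 genes were at least 2-fold higher and 1 was lower by at least 2-fold, where 4.57% of all 15022 genes measured on both arrays were higher by 2-fold or more and 1.78% lower by as much. At 1.5-fold the 10 genes gave 2 higher and 2 lower, against 12.1% higher and 5.99% lower over all genes. The median difference of the 10 genes was -0.15 on the log2 scale and that of all genes was 0.09.

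Several terms recur. The signal is the spot intensity after background subtraction and detrending by the scanner software, in arbitrary units, and the ± beside it is the error estimated by the same software for that spot. The level is the log2 signal minus the 75th percentile of its array, and a difference is the miR-122 level minus the PBS level, so that a difference of 1 is 2-fold. This scaling matters for small differences, since the 75th percentile itself was 0.28 lower on the miR-122 array on the log2 scale and every scaled difference is higher than the unscaled one by that amount. All 14 probes were printed once and were well above background on both arrays by the flag of the software, and no non-control spot was saturated. For a gene with several probes the brightest, by the mean level of both arrays, stands for the gene and the others are given beside it. Different probes of one gene gave differences with a pooled standard deviation of 0.30 over 3575 genes, which is a technical spread within these arrays and is used below to say how close values lie. Signals of different probes depend on the probe and are not compared between genes.

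Of 9 macrophage markers, 8 had a matched probe and 7 were well above background on both arrays, among them Adgre1, Csf1r, Itgam and Lyz2. Their summed level was 7.69 with PBS and 7.37 with miR-122. For 6 lists of markers of other cell types the summed level differed by between -0.01 and 0.42, miR-122 minus PBS on the log2 scale; its part in the differences below was not tested. The reference genes Actb, Gapdh and Hprt differed by 0.21, 0.18 and -0.25.

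**Figure D1:**
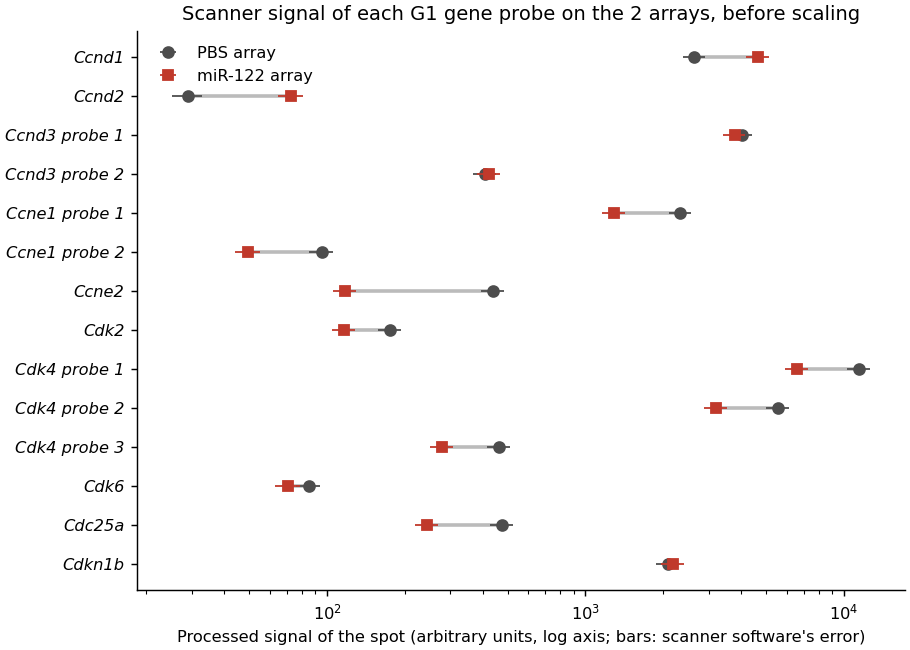
Processed signal in arbitrary units, on a log axis, of each of the 14 probes on the PBS array (grey circles) and the miR-122 array (red squares) before any scaling between arrays, with bars for the software's error of each spot. The red square lies to the right of the circle for Ccnd1 and Ccnd2 and to the left for every probe of Ccne1, Ccne2, Cdk2, Cdk4 and Cdc25a, while the symbols overlap for Ccnd3 and Cdkn1b.

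Cyclin D1, encoded by Ccnd1, is the D cyclin most closely tied to mitogen signals. Its probe A_66_P111562 gave a signal of 2639 ± 264 with PBS and 4654 ± 465 with miR-122. The signals did not overlap within their errors. The unscaled ratio was 1.76, and the scaled difference was 1.09 with a software error of 0.20. In RNA from whole cultures, a change in the number of cells expressing a gene and a change in its RNA per cell cannot be told apart. Under median scaling the difference was 0.92, under quantile normalization 0.97 and in the authors' values 0.97, each just under 2-fold. Of all measured genes, 3.71% had a higher difference than Ccnd1.

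Cyclin D2, encoded by Ccnd2, was dim. Its probe A_52_P53906 gave 29.0 ± 3.86 with PBS and 72.6 ± 7.76 with miR-122, where the lowest signals of any probe well above background were 10.8 and 11.5. Before background subtraction the median pixel intensities of these spots were 76 and 119. The gene was thus higher on the miR-122 array by 1.60, with a software error of 0.25, but by 0.74 after normexp background correction with an offset, which shrinks the differences of dim spots. That value is under 2-fold. Among the 1502 genes of the same level band, when genes are divided by level into 10 bands of equal number, 4.66% were at least 2-fold higher, and 1.66% had a higher difference than Ccnd2.

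Cyclin D3, encoded by Ccnd3, had similar signals on both arrays. Its brighter probe, designed to one transcript variant, gave 4027 ± 403 and 3783 ± 378 on the PBS and the miR-122 array, and a second probe, designed to another variant, gave 409 ± 41.0 and 424 ± 42.5. The scaled differences of these probes were 0.19 and 0.33. For the brighter probe 2 software errors on either side of the difference reached from -0.22 to 0.59, and its unscaled ratio of 0.94 lay on the other side of 1. The 3 D cyclins therefore did not differ alike: the difference of Ccnd1 exceeded that of Ccnd3 by 0.91, which is 1.88-fold. The probe spread gives a standard deviation of 0.42 for a gap between 2 genes, and this gap was larger. Gaps only a little above 0.42 can arise from the probe spread alone. A gap of this kind does not depend on a scaling by one constant for each array.

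The E cyclins were both lower on the miR-122 array. Cyclin E2, encoded by Ccne2, an E2F-controlled partner of CDK2, had the lowest difference of the 10 genes. Its probe A_65_P10671 gave 439 ± 44.0 with PBS and 118 ± 12.1 with miR-122, far outside the software errors. The scaled difference was -1.62 with a software error of 0.21, and it stayed past 2-fold under every alternative tried, between -1.80 with median scaling and -1.29 with normexp. Of all measured genes, 0.353% had a lower difference. In its level band of 1502 genes 0.999% did, and 3.73% of that band were at least 2-fold lower.

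Cyclin E1, encoded by Ccne1, is the other partner of CDK2 and had 2 probes. The brighter, A_51_P408946, gave 2331 ± 233 with PBS and 1293 ± 129 with miR-122, and the dimmer gave 95.3 ± 9.82 and 49.6 ± 5.63. The scaled differences were -0.57 and -0.66, so both probes showed the same direction and similar sizes. The difference of Ccne2 lay 1.05 below that of Ccne1, which is 2.07-fold and above the 0.42 spread of a gap.

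Cdk4, the catalytic partner of the D cyclins, had 3 probes that gave nearly the same result. Signals on the PBS and the miR-122 array were 11445 ± 1145 and 6597 ± 660 for the brightest, 5561 ± 556 and 3203 ± 320 for the next, and 462 ± 46.3 and 279 ± 28.0 for the dimmest. Their scaled differences were -0.52, -0.52 and -0.45, although their signals spanned a wide range. Every probe was lower on the miR-122 array by more than the software errors. In the band of highest level, to which Cdk4 belongs, 1.86% of 1503 genes had a lower difference, against 7.48% of all measured genes. The differences of Ccnd1 and Cdk4 lay 1.61 apart on the log2 scale, 3.06-fold.

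Cdk6, the second partner of D cyclins, was dim, and its probe gave 84.8 ± 8.80 with PBS and 70.7 ± 7.58 with miR-122. The scaled difference of 0.01 turned negative under median scaling, quantile normalization, loess and in the authors' values, with -0.16 as the lowest value, and no direction is given for this gene. Cdk2, the partner of cyclin E, gave 175 ± 17.6 and 117 ± 11.9, with a scaled difference of -0.31 and 2 software errors reaching from -0.72 to 0.11. Its difference was negative under every alternative tried, between -0.48 and -0.15. Ccne2 was lower than Cdk2 by 1.31 in terms of their differences, so the cyclin and its kinase did not differ in proportion.

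Cdc25a, whose product activates CDK2, gave 475 ± 47.6 with PBS and 244 ± 24.6 with miR-122. The scaled difference was -0.68, from -0.86 with median scaling to -0.54 with normexp. Of all measured genes, 4.39% had a lower difference, against 7.99% of the 1502 genes of its level band. Cdkn1b, which encodes p27, gave 2088 ± 209 and 2181 ± 218, signals that overlapped within their errors. Its scaled difference of 0.34 ranged down to 0.16 over the alternatives, and 2 software errors reached from -0.07 to 0.75.

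**Figure D2:**
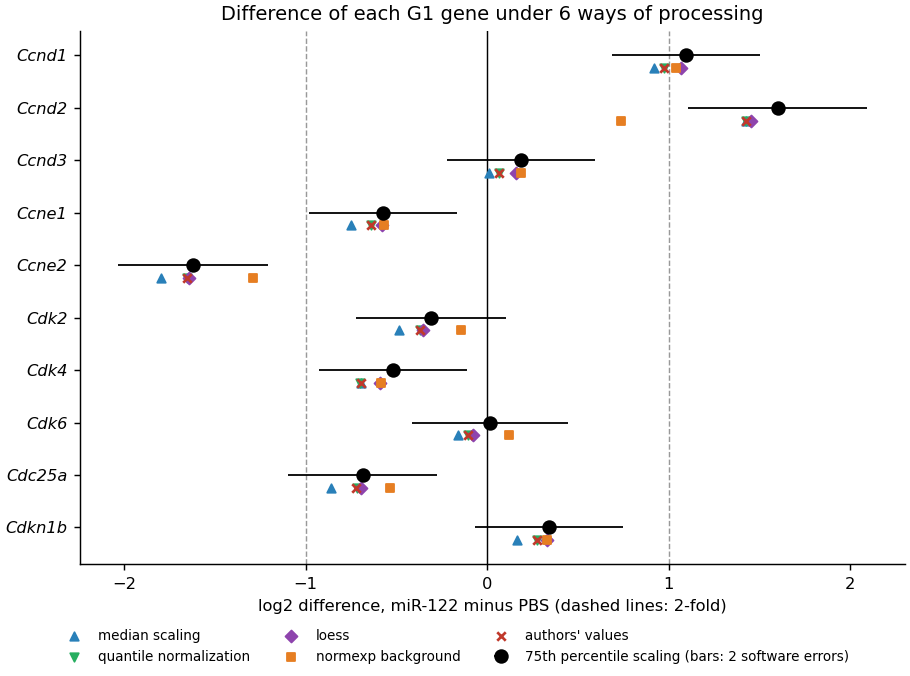
Difference, miR-122 minus PBS on the log2 scale, of each of the 10 genes by its brightest probe (black circles, with bars of 2 software errors) and, below each, by 5 other ways of processing. Dashed lines mark 2-fold. Ccnd1 and Ccnd2 lie to the right and Ccne2 to the left under all 6, the normexp value of Ccnd2 is 0.74, and Cdk6 lies on either side of 0.

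Ordered by difference, the genes ran Ccnd2, Ccnd1, Cdkn1b, Ccnd3, Cdk6, Cdk2, Cdk4, Ccne1, Cdc25a and Ccne2, over a range of 3.22. Neighbours were separated by more than 0.42, the standard deviation of a gap by the probe spread and so a lenient cut without variation between cultures, at 3 places. These lay between Ccnd2 and Ccnd1, by 0.51, between Ccnd1 and Cdkn1b, by 0.76, and between Cdc25a and Ccne2, by 0.94. The first of these gaps depends on the processing: after loess Ccnd2 and Ccnd1 differed by 1.45 and 1.07, which are less than 0.42 apart, and with normexp by 0.74 and 1.04, in the other order, with Ccnd2 then also less than 0.42 above Cdkn1b. The 7 genes from Cdkn1b to Cdc25a formed a run in which no neighbours were more than 0.42 apart. All 4 genes of the cyclin E and CDK2 arm, Ccne1, Ccne2, Cdk2 and Cdc25a, had negative differences, with a median of -0.63. Over all genes, 60.3% had a positive difference, but this majority depends on the scaling. The median of all genes was -0.08 under median scaling and -0.03 after quantile normalization and in the authors' values. The arms are groupings made here, and Cdkn1b was placed in neither. The 5 genes of the cyclin D arm had differences between -0.52 and 1.60 with a median of 0.19. That median is the value of Ccnd3, which was 0.01 under median scaling.

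**Figure D3:**
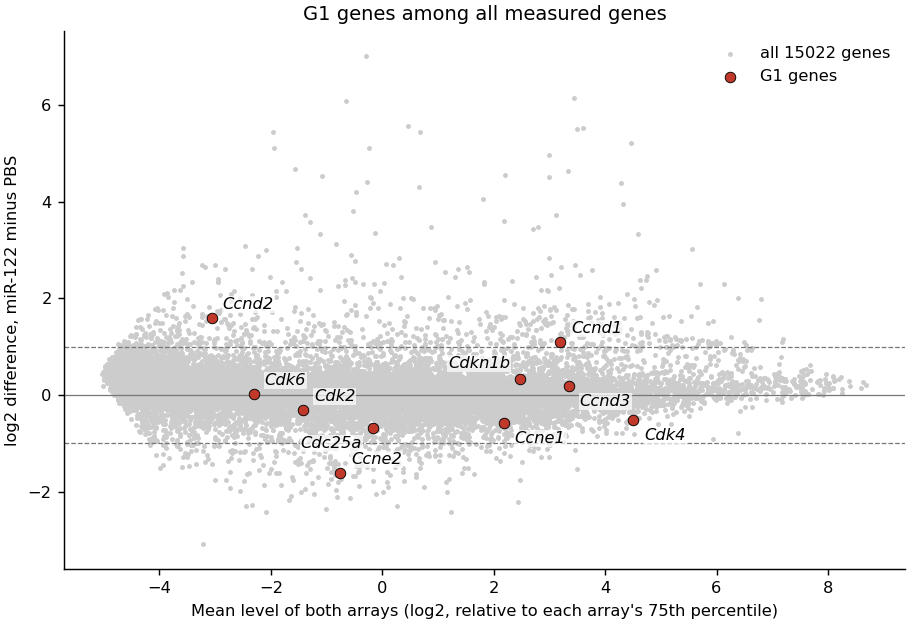
Difference, miR-122 minus PBS on the log2 scale, against the mean level of both arrays for all 15022 genes (grey) and the 10 G1 genes (red, labelled). Dashed lines mark 2-fold, and Ccnd1, Ccnd2 and Ccne2 are the labelled genes beyond them.

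Promoter windows, from 250 bases before to 50 after the transcription start, were taken from RefSeq on GRCm38.p6 for 7 of the 10 genes; Ccnd1, Ccnd2 and Ccne2 have no entry in the table used. The windows of Cdc25a, Cdk2 and Cdk4 are shown, because these genes had negative differences and their windows hold the letters of a motif of the G1 to S circuit. Capitals mark an E2F motif in Cdc25a and Cdk2 and the E-box, which Myc family proteins bind, in Cdk4. The windows lie at chr9:109875329-109875628 on the plus strand for Cdc25a, chr10:128705002-128705301 on the minus strand for Cdk2 and chr10:127063285-127063584 on the plus strand for Cdk4.
Cdc25a: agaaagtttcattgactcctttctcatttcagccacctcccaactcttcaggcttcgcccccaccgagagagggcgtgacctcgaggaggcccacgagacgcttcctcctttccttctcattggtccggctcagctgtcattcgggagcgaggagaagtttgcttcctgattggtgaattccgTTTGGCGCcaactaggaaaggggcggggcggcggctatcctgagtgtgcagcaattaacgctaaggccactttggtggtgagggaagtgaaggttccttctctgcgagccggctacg
Cdk2: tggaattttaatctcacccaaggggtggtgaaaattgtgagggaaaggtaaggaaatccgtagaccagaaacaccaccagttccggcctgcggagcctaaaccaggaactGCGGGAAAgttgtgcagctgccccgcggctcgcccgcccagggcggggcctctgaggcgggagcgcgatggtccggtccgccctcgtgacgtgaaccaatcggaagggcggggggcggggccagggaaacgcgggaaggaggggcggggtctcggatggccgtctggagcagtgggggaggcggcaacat
Cdk4: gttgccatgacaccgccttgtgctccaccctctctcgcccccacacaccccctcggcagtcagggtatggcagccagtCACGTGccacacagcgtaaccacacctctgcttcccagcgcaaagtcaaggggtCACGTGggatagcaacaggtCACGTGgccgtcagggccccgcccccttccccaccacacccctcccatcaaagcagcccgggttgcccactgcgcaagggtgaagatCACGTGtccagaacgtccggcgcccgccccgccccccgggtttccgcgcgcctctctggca

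The E2F motif was searched on both strands in 4 spellings, TTTCCCGC first, then with TTTCGCGC, further with TTTGCCGC, finally with TTTGGCGC, and 2.26% of 32851 promoter windows of the same length held at least 1 of them. Cdc25a held TTTGGCGC from 67 to 60 bases before the start, and Cdk2 held TTTCCCGC on the other strand from 140 to 133 bases before it. The windows of Ccne1, Ccnd3, Cdk4, Cdk6 and Cdkn1b did not hold these letters. The E-box was searched as CACGTG, which reads the same on both strands and was present in 7.15% of all windows. Cdk4 held 4 copies, at 172, 118, 98 and 11 bases before the start, and 0.0244% of all windows held 4 or more. Cdk6 held 1 copy. Searched in the same way, the cell cycle homology element TTTGAA was in 17.9% of all windows, the AP-1 motif TGANTCA in 7.81% and the cyclic AMP response element TGACGTCA in 1.79%, and none of the 8 windows of these 7 genes held any of them. The GC box GGGCGG was in 7 of the 8 windows and 35.7% of all, and the CCAAT box in 4 of the 8 and 37.4% of all. The motifs may share bases with each other, and a match describes the letters only.

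The rest of the pathway was followed through 8 lists of genes with their roles, of which 92 genes were measured on both arrays, 3 higher by 2-fold or more and 11 lower by as much. The shares over all genes measured, for these counts and those that follow, were 4.57% higher and 1.78% lower. Of 7 measured later cyclins, CDK1 and their phosphatases, 4 were at least 2-fold lower and 0 higher, with a median of -1.09; with normexp 2 were lower, Ccna2 and Cdk1. Ccna2, the S phase cyclin, gave 281 with PBS and 51.3 with miR-122, a difference of -2.18 that was -1.30 with normexp. Cdk1, the mitotic kinase, differed by -1.25, Ccnf by -1.18, and the mitotic cyclins Ccnb1 and Ccnb2 by -1.09 and -0.98. The phosphatase genes Cdc25c and Cdc25b differed by -0.25 and -0.15, the former 0.16 with normexp.

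Among 14 measured genes of origin licensing and S phase entry, 4 were at least 2-fold lower and 1 higher, with a median of -0.71. Median scaling made 7 of them lower by 2-fold, where it made 3.04% of all genes so. The thymidine kinase gene Tk1 differed by -2.43, the ribonucleotide reductase gene Rrm2 by -2.21, the licensing factor gene Cdc6 by -1.88, and the transcription factor gene Mybl2 was 2.83-fold lower. A second, dim probe of Cdc6 differed by 0.02. Ung, which encodes uracil-DNA glycosylase and was named after its value was seen, was the one gene of the list at least 2-fold higher, by 1.07. Its difference was between 0.85 and 0.96, under 2-fold, with median scaling, quantile normalization, loess and normexp and in the authors' values. Tyms, named in the same way, differed by 0.80. In this list 3 genes had a positive difference and 11 a negative one, where 60.3% of all genes had a positive one. Under median scaling the median of all genes was itself negative, at -0.08.

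Pocket proteins, E2F factors and their partners had a median of -0.34 over 13 genes, with 2 at least 2-fold lower, or 5 under median scaling. The difference was negative for 12 of the 13, whereas 60.3% of all genes had a positive one on the scaling used, a majority not kept under median scaling. E2f8, a repressor of the family, differed by -2.29, the partner gene Tfdp2 by -1.32, or -0.53 with normexp, and the activators E2f2 and E2f1 by -0.97 and -0.92. E2f7 and E2f3, named after their values were seen, each had probes that disagreed in sign. E2f7 gave 0.09 at the probe that was counted, and -2.25 at the other. The latter was the brighter on the PBS array, at 280 against 127, but not by the mean of both arrays. E2f3 was counted as negative at -0.25, while its dimmer probe gave 0.53. The mean over probes moved the median of the list to -0.73.

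Other regulators act on the cyclin-CDK complexes directly. Of 6 other measured CDK inhibitors none was 2-fold different. Cdkn1a, which encodes p21, gave 1900 with PBS and 3126 with miR-122, 1.99-fold higher and so just under 2-fold, while a dim second probe differed by 0.40. Cdkn2d, an inhibitor of CDK4 and CDK6, differed by 0.53, Cdkn2a by 0.35, Cdkn1c by -0.16, Cdkn2c by -0.25 and Cdkn3 by -0.48. Cdkn2a was close to the lowest signals, at 13.8 with PBS and 14.5 with miR-122, and differed by 0.05 after quantile normalization. Cdkn3 was also dim and differed by -0.04 with normexp. The median of this list, 0.10, turned negative under median scaling, quantile normalization, loess and in the authors' values. Among kinases that set CDK phosphorylation and their partners, Wee1 and Pkmyt1, which inhibit CDKs, differed by -1.49 and -0.81, and Wee1 was the 1 gene of these 6 past 2-fold. The CDK-activating kinase genes Cdk7, Mnat1 and Ccnh differed by 0.06, -0.05 and -0.21, and the chaperone gene Cdc37 by 0.09; the signs of Cdk7 and Cdc37 turned with median scaling and that of Ccnh with normexp. None of 14 measured genes of cyclin and p27 turnover passed 2-fold. Skp2 and Skp1a, also in this list, had no matched probe, so nothing is known of them here. Cks1b, a cofactor in p27 degradation, differed by -0.95, or -1.12 and so past 2-fold under median scaling, and its relative Cks2 by -0.53. Btrc and Fbxw7, which recognise substrates for ubiquitin ligases, differed by 0.48 and 0.41. Btrc was dim, at 17.3 with PBS and 19.9 with miR-122, and differed by 0.20 after quantile normalization.

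Upstream of the D cyclins, 2 of 9 measured mitogen and transcription inputs were at least 2-fold higher and 0 lower, with a median of 0.83. Egr1, an immediate early transcription factor gene, differed by 1.29 and Mxd1, whose product competes with Myc for Max, by 1.20, with 2.11 at a second probe. Max itself differed by 0.88 and Mycn by -0.85, which was -1.03 and past 2-fold under median scaling. Myc, named after its value was seen, differed by -0.08, with signals of 2155 and 1685 on the PBS and the miR-122 array. Csf1r, named in the same way, had differences of -0.78, -0.60 and -0.06 at its 3 probes.

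Of 23 other cyclins and CDKs, most of which act in transcription, none passed 2-fold, and the median was 0.20. Ccnl1 differed by 0.74, Cdk9 by 0.50, Ccng2 by 0.50 and Cdk17 by 0.42. The dimmest of 3 probes of Cdk9 differed by -0.10. Ccng1, a reported target of miR-122, gave 489 with PBS and 302 with miR-122, a difference of -0.42.

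**Figure D4:**
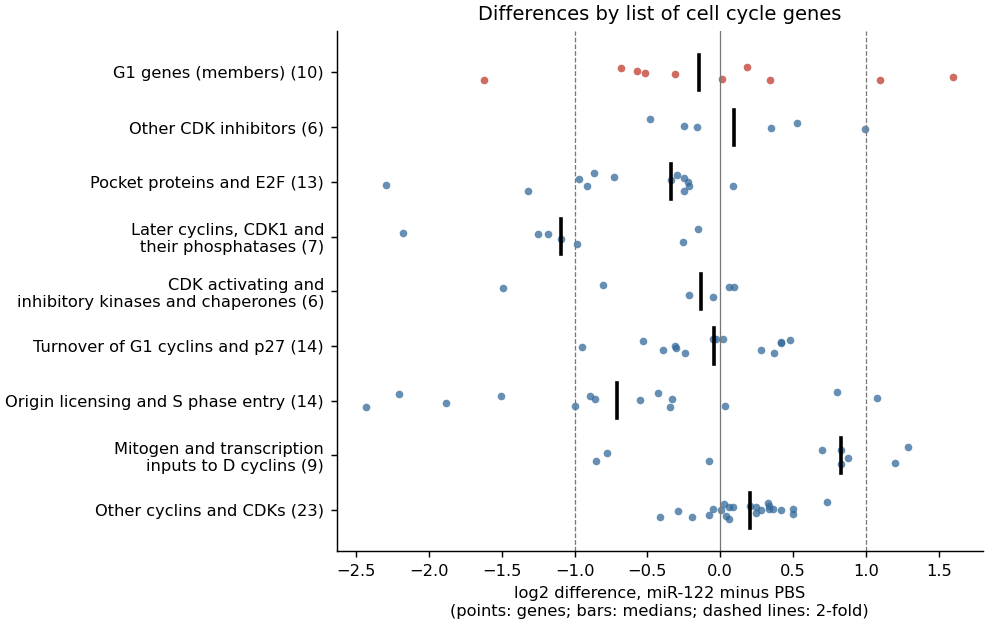
Difference, miR-122 minus PBS on the log2 scale, of each gene measured on both arrays (points) in the 10 G1 genes (red) and in 8 lists of cell cycle genes (blue), with the number of genes in brackets and black bars at the medians. The median lies at -1.09 for later cyclins and CDK1 and at 0.83 for inputs to D cyclins, while the points of the 10 G1 genes spread from -1.62 to 1.60.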

How the data were processed

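RNA from 1 PBS and 1 miR-122 sample was measured on 1 array each, both on the same slide; groups follow the source names. The deposited scanner files hold spot intensities that, per the file headers, Agilent Feature Extraction 11.0.1.1 subtracted for background and detrended, without normalization between arrays. The deposited series matrix holds the authors' log2 values, made by a normalization that the sources used here do not state.

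Control spots and spots flagged as outliers were left out, log2 signals were averaged over the spots of each probe, and each array's 75th percentile was subtracted. Accessions were matched to RefSeq symbols (GRCm38.p6, names only) for 27234 of 39429 probes. The brightest probe that exceeded background on either array stood for its gene, and counts cover genes whose probe did so on both, at a threshold of 2-fold. No test was run, since each group holds 1 array. R 4.3.3, limma 3.58.1, Python 3.11.15 and pandas 2.3.3 were used, and the code that counts genes was tested on simulated data. Alternatives were other scalings, normexp with an offset of 50, loess with a span of 0.3, the authors' values, other filters, probe rules and thresholds of 1.5-fold and 4-fold.

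The genes, lists and alternatives were chosen with earlier results of these data known. Named were the 10 genes with all their probes, all genes of lists of 8 or fewer, the 4 with the largest absolute difference in longer lists, Ccng1, Actb, Gapdh and Hprt; other genes are said to be named after their values were seen. Motifs and the promoters shown were also chosen after the values were seen.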

Additional observations from a re-analysis of the deposited data

How the results depend on the processing

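Of 210 values recomputed under alternatives, 189 kept their size and their side of 2-fold. These values were those of the 10 genes, the counts over these and over all genes, and the list medians. Size was judged against the probe spread of 0.30 or, for counts, 1.5 times. The number overstates how stable the values are. The filters on dim probes left the differences of all 10 genes unchanged, and the mean over probes cannot change a gene with a single probe. A change of sign within 0.30 also counted as kept, as for Cdk6 and the median of other CDK inhibitors. Ccnd1 was below 2-fold in the authors' values (0.97), after quantile normalization (0.97) and after scaling on the median (0.92), and Ccnd2 with normexp (0.74). Each of these 4 alternatives left 1 of the 10 genes at least 2-fold higher. Ccne2 was -1.29 with normexp. At a threshold of 1.5-fold 2 of the 10 genes were lower, and at 4-fold 0 were higher and 0 lower. The median of later cyclins and CDK1 was -0.86 with normexp, and that of pocket proteins and E2F -0.73 as a mean over probes. Over all genes, 2.59% were higher and 0.953% lower by 2-fold with normexp, 3.04% lower with median scaling, 12.1% and 5.99% at 1.5-fold, and 0.812% and 0.113% at 4-fold. Among the counts for the lists, median scaling made 7 genes of S phase entry, 5 of pocket proteins and E2F, 1 input to D cyclins and 1 turnover gene lower by 2-fold, and normexp left 2 of the later cyclins and CDK1. Without a filter on dim probes the counts over all genes were 1358 and 451. Median scaling moved the median of all genes by -0.18, quantile normalization and the authors' values by -0.12, and the share of higher genes among those past 2-fold was 71.9% under the main scaling, 50.8%, 59.9% and 59.9% under these 3, in that order. Dropping the dimmest 25% of probes changed no count, because no gene counted on both arrays had its brightest probe among them. The cause of the other changes was not tested, except that the normexp offset and the changed thresholds act by construction. Leaving out a replicate was not possible with 1 array in each group. No paired analysis was possible because the groups share 1 replicate number only. Low signal over background limits Ccnd2, Cdk6 and the dimmer Ccne1 probe. Among the genes of the lists it limits Cdkn2a, Btrc, Cdc25c, Ccnh, Cdkn1c, Cdkn3 and Tfdp2 at least.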
